A study of Mus musculus with 4 samples.

Results

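Messenger RNA was measured by RNA-seq for 39 genes of the p53 pathway and of apoptosis in ID4-EGFP+ spermatogonia, sorted from mouse testes at postnatal day 8. The genes were chosen by symbol, as p53 and its targets, the BCL2 family, caspases and death receptors, and all 39 were found among the 54920 genes listed. There were 2 control and 2 *Cnot3*-cKO libraries. *Cnot3*-cKO mice carried *Cnot3* flox/flox, *Id4-eGfp* and *Ddx4*-creER, a tamoxifen-inducible Cre driven by a germ cell promoter. Controls are labelled wild-type, while the methods of the study describe its neonatal controls as *Cnot3* flox/flox littermates without the Cre, and sorting on EGFP requires that they also carried *Id4-eGfp*. Every animal had received 4-OHT, the active form of tamoxifen, from day 1 to day 3 after birth. Somatic cells that entered the sort would keep an intact *Cnot3*. The labels do not say whether the libraries came from separate animals. The study calls the replicates of this RNA-seq biological but counts more of them per group than the libraries analysed here, and how they correspond is unresolved. The p-values therefore measure the spread between these libraries, which may in part be technical. The comparison asks whether germ cells that had lost CNOT3, a subunit of the CCR4-NOT complex that shortens poly(A) tails, differed in the transcripts that control survival and death.

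p53, the product of *Trp53*, is a transcription factor that MDM2 and MDM4 hold in check, and that is stabilised after DNA damage and other stress. It then activates genes for cell cycle arrest and repair and genes for cell death, largely without a change in its own transcript. In the mitochondrial pathway, BH3-only proteins relay a death signal, pro-survival BCL2 proteins hold it back, and the effectors BAX, BAK and BOK open the outer mitochondrial membrane. Cytochrome c then assembles APAF1 and caspase-9 into the apoptosome. Death receptors such as FAS work instead through caspase-8. The juvenile testis passes through a wave of germ cell apoptosis that depends on BAX.

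Libraries held 40957899 and 43378493 counted reads in controls, against 22192964 and 28019626 after *Cnot3* deletion, so depth differed with the group. *Cnot3* itself had 58.6 and 50.2 CPM (counts scaled to a fixed library total after TMM adjustment) in controls and 19.2 and 19.9 CPM in *Cnot3*-cKO cells, a log2 fold change of -1.48 (standard error 0.13). Germ cell identity was checked with 10 pan-germ cell genes, among them *Ddx4* and *Dazl*. Their summed level was 4799 and 5230 CPM in controls and 4530 and 4779 CPM in *Cnot3*-cKO cells, and 0 of 10 passed the edgeR test at an adjusted p under 0.01, although 5 had an unadjusted p under 0.05, 3 lower and 2 higher. All tested genes were not counted at that unadjusted limit. Of 10 genes of undifferentiated spermatogonia, 3 were higher and 5 lower in *Cnot3*-cKO cells, beside 6.21% and 4.7% of all tested genes. The higher were *Id4*, the gene of the sorted reporter (log2 fold change 1.04), *Gfra1* (0.90) and *Etv5* (0.54). The lower were *Lin28a* (-1.09), *Nanos3* (-1.07), *Zbtb16* (-0.82), *Uchl1* (-0.80) and *Sall4* (-0.42). Markers of somatic cells moved with the group. The summed level of 16 Sertoli cell genes was 457 and 464 CPM in controls and 1419 and 1422 CPM in *Cnot3*-cKO cells, and 15 of the 16 were higher. Of 9 macrophage genes 8 were higher, from 269 and 177 CPM to 593 and 484 CPM in sum. Of 6 tested Leydig cell genes 5 were higher, with sums of 368 and 323 CPM in controls and 831 and 897 CPM in *Cnot3*-cKO cells, while *Insl3* had 0 reads in every library. Sums were 19.6 and 24.2 against 35.4 and 42.7 CPM for 6 peritubular myoid cell genes, of which 2 were higher. They were 37.4 and 33.4 against 52.5 and 54.9 CPM for 6 endothelial genes, of which 2 were higher. The part of these cells in the results that follow was not tested.

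**Figure D1:**
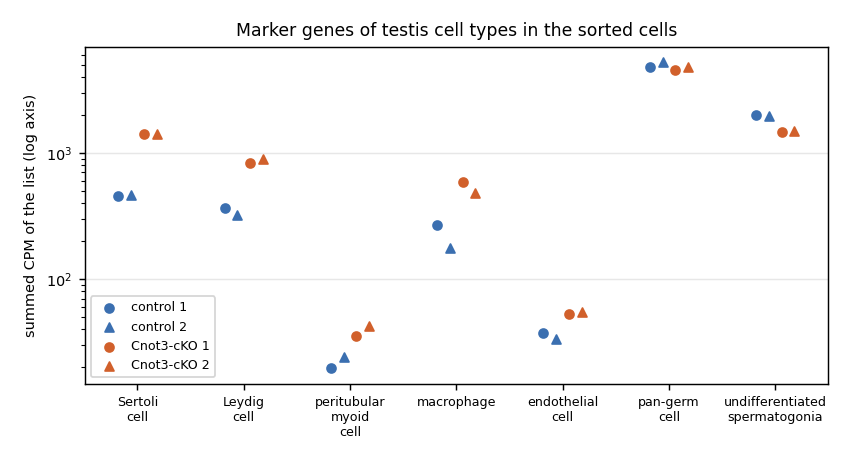
Summed CPM (log axis) of marker genes for 7 testis cell types, 1 point for each library, blue for control and orange for Cnot3-cKO. The Sertoli cell sum was 457 and 464 CPM in controls and 1419 and 1422 CPM in Cnot3-cKO cells, whereas the pan-germ cell sum lay between 4530 and 5230 CPM in all 4 libraries.

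Of the 39 genes, all of which passed the filter on low counts, 7 were higher and 2 were lower in *Cnot3*-cKO cells at an adjusted p under 0.01. The higher genes were *Cdkn1a*, *Ccng1*, *Zmat3*, *Plk2*, *Eda2r*, *Bok* and *Casp8*, and the lower ones were *Trp53inp1* and *Bcl2l1*. Gene positions given with them are those of GENCODE M21 on GRCm38. Over all 23952 tested genes, 6.21% were higher and 4.7% were lower by the same rule. The 7 higher calls were also made under every other scaling tried, but both lower calls were lost with upper quartile, library size or pan-germ cell scaling, which gave 7, 8 and 8 higher and 0 lower. The libraries in which the 7 genes were higher were those with the higher Sertoli, Leydig and macrophage sums. With a further limit of a fold change above 2, 4 of the 39 were higher, namely *Cdkn1a*, *Plk2*, *Eda2r* and *Casp8*, and 0 were lower by edgeR or by DESeq2, against 4.03% and 0.735% of all tested genes. The lowest log2 fold change was -0.54, so no estimate reached a fall of 2-fold. For *Fas* and *Trp73*, which had few reads, such a fall was not excluded. Their intervals from the fitted model ran from -2.03 to 1.38 and from -1.08 to 2.17 on the log2 scale. In all, 20 genes had a positive and 19 a negative log2 fold change. The median was 0.02, beside 0.01 over all tested genes, so there was no common direction. The groups did not overlap for 30 of the 39 genes, against 59.1% of all tested genes. In 16 cases *Cnot3*-cKO cells were above controls in both libraries and in 14 below, against 30.5% and 28.6% of all tested genes. At this group size the smallest two-sided p of an exact permutation test is 0.333, and each adjusted p therefore rests on the dispersion that edgeR fitted across genes. A fall in a transcript can stem from fewer cells of a type in the sort or from less RNA in each, and bulk libraries cannot tell these apart. When every library was thinned to 22192964 reads, a choice made after seeing the data, the same 9 genes were called.

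**Figure D2:**
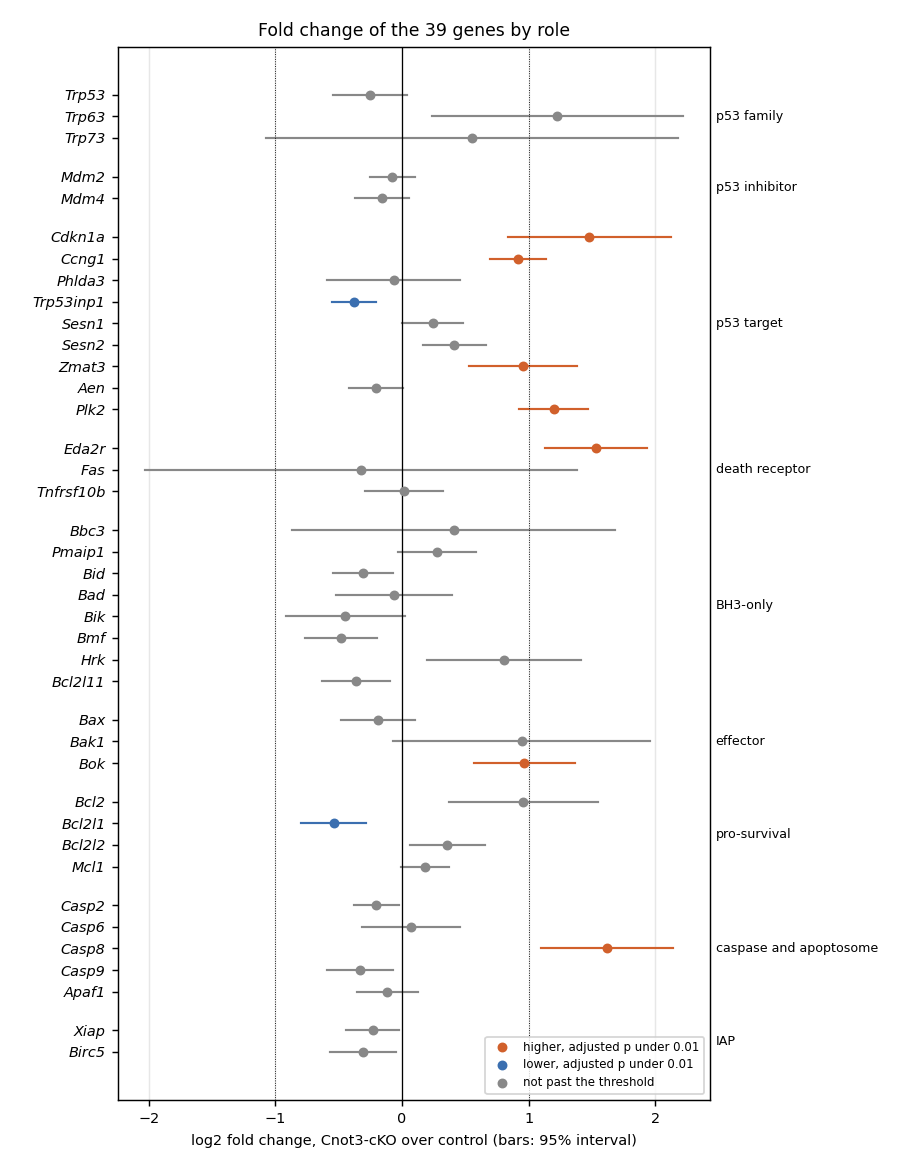
Log2 fold change of each of the 39 genes, Cnot3-cKO over control, by role. Points are estimates from 2 libraries per group and bars their 95% intervals, with orange for the 7 genes called higher, blue for the 2 called lower and grey for the 30 others. Dotted lines mark a 2-fold change.

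Because several of these genes are known p53 targets, the DNA around their start sites was searched for the p53 consensus, which is a pair of adjoining decamers, each with 3 purines, a C, 2 bases that are A or T, a G and 3 pyrimidines. Windows came from RefSeq on GRCm38.p6, the assembly also called mm10, and ran from 250 bases before to 50 bases after each start. Windows were found for 33 of the 39 genes. A match had to have the 4 fixed C and G bases and no spacer, with at most 3 mismatches over its 20 bases. The consensus reads the same on both strands. Of the 33 genes, 7 held a match in at least 1 window, or 21.2%, against 1.63% of the 27025 genes with a window. Since the list was drawn up from known p53 targets, this share describes the choice of genes. The best matches are shown on each gene's strand, with the fixed core bases in capitals.
Cdkn1a: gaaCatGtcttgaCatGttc
Ccng1: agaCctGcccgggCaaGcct
Trp73: gggCaaGctgaggCctGccc
Aen: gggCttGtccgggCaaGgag
Bbc3: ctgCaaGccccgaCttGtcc
Sesn1: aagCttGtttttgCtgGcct
Trp53: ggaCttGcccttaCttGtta

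The *Cdkn1a* and *Ccng1* elements had 1 mismatch each, a closeness found in 0.067% of all 32851 windows. *Trp73* had 2 mismatches, and *Aen*, *Bbc3*, *Sesn1* and *Trp53* had 3. The *Cdkn1a* element lies at chr17:29090928-29090947, starting 51 bases before the upstream of its 2 listed starts. That of *Ccng1* lies at chr11:40755462-40755481, 195 bases before the start on the reverse strand. The others lie at chr4:154097220-154097239 for *Trp73* (reverse strand) and, on the forward strand, at chr7:78895937-78895956 for *Aen*, chr7:16309486-16309505 for *Bbc3*, chr10:41887266-41887285 for *Sesn1* and chr11:69580284-69580303 for *Trp53*. Of the genes with a match, *Cdkn1a* and *Ccng1* rose, and *Trp73*, *Aen*, *Bbc3*, *Sesn1* and *Trp53* did not pass the test. Depth limits *Trp73*, with 8 to 15 reads in each library, and *Bbc3*, with 16 to 51. Whether the closeness of a match goes with a change in level was not tested. The 250 bases before the start are shown for the risen genes with a match, with the element in capitals. They lie at chr17:29090729-29090978 (forward strand) for *Cdkn1a* and chr11:40755287-40755536 (reverse strand) for *Ccng1*.
Cdkn1a: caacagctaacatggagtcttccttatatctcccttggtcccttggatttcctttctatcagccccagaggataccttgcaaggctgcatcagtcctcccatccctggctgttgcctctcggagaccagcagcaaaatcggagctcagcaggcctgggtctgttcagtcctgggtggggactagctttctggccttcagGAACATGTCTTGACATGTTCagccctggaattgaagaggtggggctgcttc
Ccng1: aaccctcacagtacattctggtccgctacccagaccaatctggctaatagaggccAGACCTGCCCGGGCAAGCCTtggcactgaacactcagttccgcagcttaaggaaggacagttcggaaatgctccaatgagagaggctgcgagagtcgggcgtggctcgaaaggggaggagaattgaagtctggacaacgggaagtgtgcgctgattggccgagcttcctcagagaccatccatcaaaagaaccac
Among the other risen genes, *Plk2*, *Eda2r*, *Bok* and *Casp8* had windows without a match, and *Zmat3* had no window. A match describes letters in these windows only. For *Bok* and for every *Bbc3* window, the bases just after the start were not found in a GENCODE transcript of the gene. The same held for windows of *Bcl2*, *Birc5*, *Mcl1*, *Mdm4* and *Phlda3*, which had no match.

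**Figure D3:**
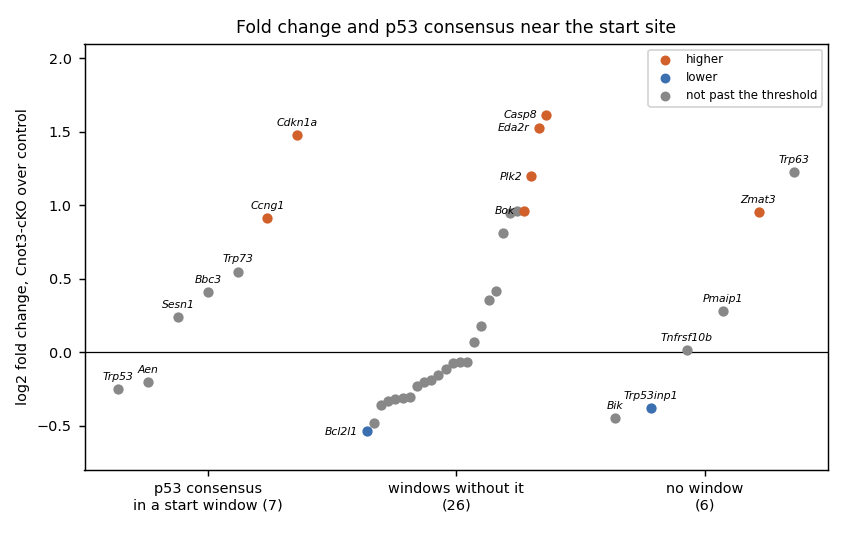
Log2 fold change (Cnot3-cKO over control) of the 39 genes, split by whether a RefSeq start window held the p53 consensus (7 genes), held none (26) or was not listed (6). Genes called higher occur in each class, with Cdkn1a at 1.48 and Ccng1 at 0.91 in the class with a match.

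*Trp53* had 35.5 and 30.8 CPM in controls and 29.4 and 26.3 CPM in *Cnot3*-cKO cells. Both *Cnot3*-cKO libraries lay below both controls, but the log2 fold change of -0.25 (95% interval -0.55 to 0.04) did not pass the test (adjusted p = 0.222). Its relatives had few reads. *Trp63*, whose TAp63 form guards oocytes, had 0.869 and 0.689 CPM in controls and 1.32 and 2.30 CPM in *Cnot3*-cKO cells (log2 fold change 1.23, standard error 0.46, adjusted p = 0.0783). *Trp73* had 0.199 and 0.357 CPM against 0.397 and 0.419 CPM, from 8 to 15 reads in each library (adjusted p = 0.675). Per kb of exon, *Mdm2* and *Mdm4* were in places 4 and 7 of the 39 genes in both groups. *Mdm2*, a ubiquitin ligase for p53 and itself a classical p53 target, had 161 and 164 CPM in controls and 155 and 152 CPM in *Cnot3*-cKO cells. This was a log2 fold change of -0.08, with a 95% interval of -0.26 to 0.10 that leaves out a rise of 2-fold (adjusted p = 0.580). *Mdm4*, which blocks the activation domain of p53, had 355 and 290 CPM against 288 and 288 CPM (log2 fold change -0.16, adjusted p = 0.289).

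The 9 other p53 targets with roles in arrest, repair and stress had 4 members higher and 1 lower, where 6.21% and 4.7% of all tested genes were. *Cdkn1a* (chr17:29090976-29100727), which encodes the cyclin-dependent kinase inhibitor p21, had 2.01 and 2.45 CPM in controls and 7.72 and 4.78 CPM in *Cnot3*-cKO cells. The groups did not overlap, although the *Cnot3*-cKO libraries differed from each other more than the controls did. It rose by 1.48 on the log2 scale (standard error 0.30, adjusted p = 0.00412), and without *Cnot3*-cKO replicate 1 it was 1.09 and no longer passed (adjusted p = 0.0269). On GENCODE M21, 7.68% of its exon bases are shared with *AC167363.2* on the opposite strand, and the strand setting of the counting is not given in the sources used here. *Ccng1* (chr11:40748552-40755311), which encodes cyclin G1, had 106 and 130 CPM in controls and 222 and 222 CPM in *Cnot3*-cKO cells. This was a 1.88-fold rise (log2 fold change 0.91, standard error 0.10, adjusted p = 8.98e-05). *Plk2* (chr13:110395046-110400844), a polo-like kinase of the stress response, went from 22.3 and 25.1 CPM to 57.7 and 50.9 CPM, a 2.29-fold rise (adjusted p = 6.10e-05). *Zmat3* (chr3:32334792-32366014), an RNA-binding zinc finger protein, had 7.77 and 6.35 CPM against 12.7 and 14.7 CPM (log2 fold change 0.96, adjusted p = 0.00469). Its value was 0.82 without control replicate 2 (adjusted p = 0.0111) and 0.84 without *Cnot3*-cKO replicate 2 (adjusted p = 0.0228), neither of which passed.

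*Trp53inp1* (chr4:11156431-11174379) moved the other way. It encodes a nuclear stress protein that acts with p53, and its 352 and 369 CPM in controls compared with 269 and 286 CPM in *Cnot3*-cKO cells, a level of 0.769 relative to controls (log2 fold change -0.38, standard error 0.08, adjusted p = 0.00551). Leaving out *Cnot3*-cKO replicate 1 or 2 also ended this call, with log2 fold changes of -0.34 and -0.42 (adjusted p = 0.0938 and 0.0304). The remaining targets did not pass the test. The sestrins, which restrain mTORC1 and limit oxidative stress, were above both controls in both *Cnot3*-cKO libraries, with log2 fold changes of 0.24 for *Sesn1* (adjusted p = 0.148) and 0.41 for *Sesn2* (adjusted p = 0.0235). *Aen*, an exonuclease, had a log2 fold change of -0.21 (adjusted p = 0.175). *Phlda3*, an inhibitor of AKT, had 7.27 and 11.8 CPM in controls and 10.02 and 8.24 CPM in *Cnot3*-cKO cells, so that the groups overlapped.

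Genes were compared per kb of exon, counting all annotated exon bases of a gene, whichever of its transcripts the cells made. The order therefore depends in part on the annotation. On this scale *Trp53inp1* was the most abundant of the 39 genes in controls with a mean of 55.7 CPM per kb, and *Ccng1* was in place 3 with 33.6. In *Cnot3*-cKO cells *Ccng1* led with 63.2 CPM per kb and *Trp53inp1* was in place 3 with 42.9. *Cdkn1a* stood in place 31 in both groups, at means of 0.628 and 1.76 CPM per kb.

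**Figure D4:**
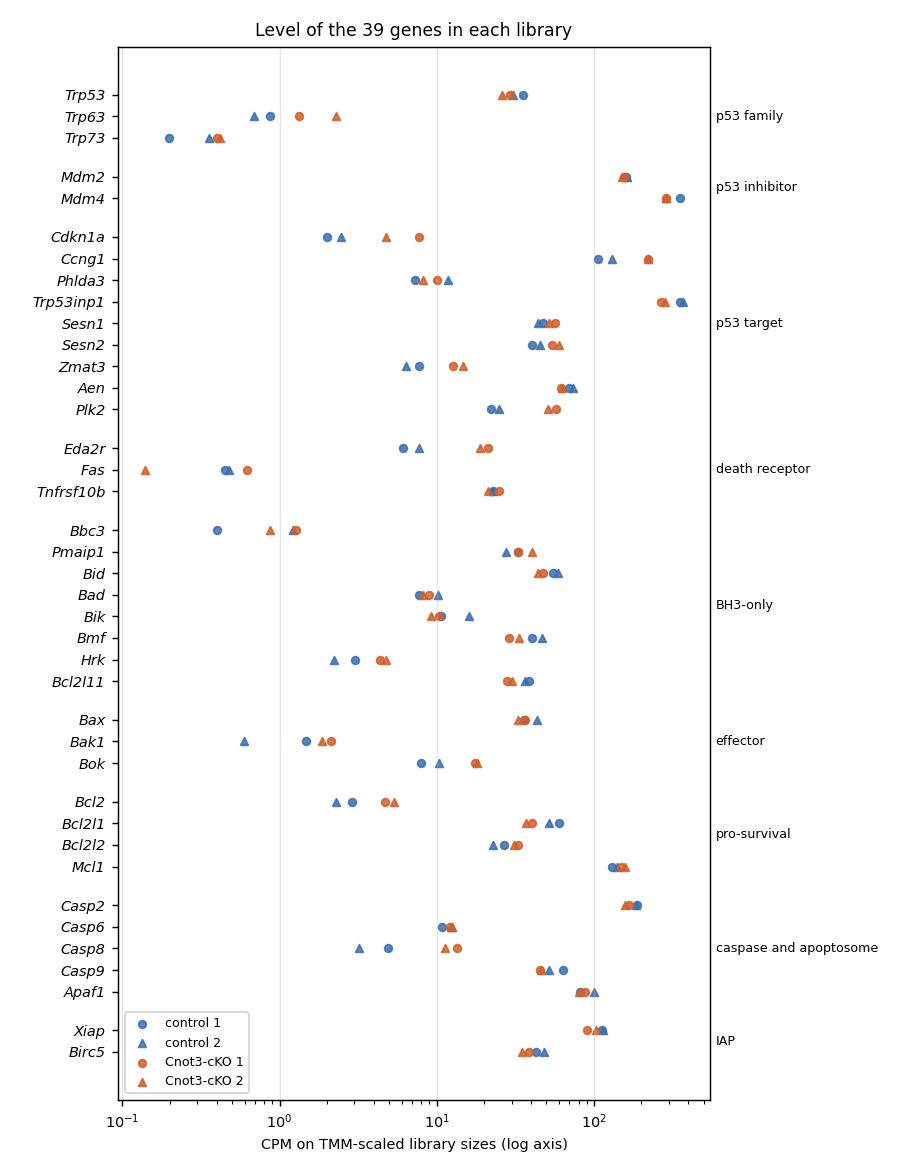
CPM (log axis) of each of the 39 genes in each library, by role, with blue for control and orange for Cnot3-cKO, and circles and triangles for replicates 1 and 2. Cdkn1a, Plk2, Eda2r and Casp8 show orange points well to the right of blue ones, whereas Mdm2 points lie within 152 to 164 CPM.

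A further 28 genes known as p53 targets were counted for context, of which 27 were tested. Of these, 5 were higher and 2 lower, or 18.5% and 7.41%, beside 6.21% and 4.7% of all tested genes. Their median log2 fold change was 0.14. *Ptprv*, a p53-induced phosphatase in mice, had 3.82 and 4.14 CPM in controls and 13.6 and 12.2 CPM in *Cnot3*-cKO cells (log2 fold change 1.70, adjusted p = 1.52e-04). *Sfn*, which encodes the 14-3-3 sigma protein of the G2 checkpoint, had 1.14 and 1.28 CPM against 3.80 and 5.45 CPM (log2 fold change 1.93, adjusted p = 0.00126). *Fdxr*, a mitochondrial ferredoxin reductase, had 13.3 and 20.1 CPM against 31.5 and 33.8 CPM (log2 fold change 0.97, adjusted p = 0.00256). *Ak1* (1.97) and *Ephx1* (0.73) were the other higher genes, and *Ei24* (-0.45) and *Pmm1* (-0.68) were the lower ones, with log2 fold changes in brackets. *Ephx1*, *Ei24* and *Pmm1* are named to complete the counts, after their values were seen.

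Of the 3 death receptor genes, *Eda2r* (chrX:97333840-97377216) was higher. It encodes a receptor for ectodysplasin A2, and its 6.11 and 7.77 CPM in controls compared with 21.1 and 19 CPM in *Cnot3*-cKO cells, a 2.88-fold rise (log2 fold change 1.53, standard error 0.19, adjusted p = 1.60e-04). *Fas*, the receptor for FAS ligand, was barely detected, with 18 and 20 reads in controls against 14 and 4 after *Cnot3* deletion. Its 95% interval, from -2.03 to 1.38 on the log2 scale, shows that a fall or rise of 2-fold was not detectable at this depth. *Tnfrsf10b*, the mouse TRAIL receptor, had 22.8 and 22.9 CPM in controls and 24.9 and 21.4 CPM in *Cnot3*-cKO cells, with a log2 fold change of 0.02 (95% interval -0.30 to 0.33, adjusted p = 0.960).

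*Casp8* (chr1:58795374-58847503), the initiator caspase of the receptor pathway, had the largest fold change of the 39 genes. It had 4.89 and 3.21 CPM in controls and 13.6 and 11.3 CPM in *Cnot3*-cKO cells, a 3.07-fold rise (log2 fold change 1.62, standard error 0.24, adjusted p = 6.32e-04). The rise was seen whichever library was left out, with log2 fold changes from 1.34 to 1.95. The caspases of the mitochondrial pathway did not pass the test. *Casp9* had 63.8 and 51.7 CPM in controls and 45.5 and 46.2 CPM in *Cnot3*-cKO cells (log2 fold change -0.33, adjusted p = 0.0732), and *Apaf1*, its platform, overlapped between the groups (log2 fold change -0.12, adjusted p = 0.517). *Casp2*, activated by the PIDDosome, was the most abundant caspase gene per kb of exon, with 26.4 CPM per kb in controls and 23.0 in *Cnot3*-cKO cells (log2 fold change -0.20, adjusted p = 0.109). *Casp6*, an executioner caspase, ranged from 10.9 to 12.6 CPM over the 4 libraries. *Casp8* stood lower on this scale, at 1.40 CPM per kb in controls and 4.30 in *Cnot3*-cKO cells.

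Both inhibitors of apoptosis in the list lay below controls in both *Cnot3*-cKO libraries, as did 28.6% of all tested genes. Neither passed the test. *Xiap*, which binds and blocks caspases, had 114 and 115 CPM in controls and 90.7 and 104 CPM in *Cnot3*-cKO cells (log2 fold change -0.23, adjusted p = 0.115). *Birc5*, which encodes survivin and also serves chromosome segregation, had 43.0 and 48.1 CPM against 38.5 and 35.0 CPM (log2 fold change -0.31, adjusted p = 0.0872).

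Among 26 other genes of the apoptosis machinery, 22 were tested, 2 were higher and 1 was lower, or 9.09% and 4.55%, near the 6.21% and 4.7% of all tested genes. Their median log2 fold change was 0.09. *Cflar*, which encodes the caspase-8 inhibitor c-FLIP, rose with *Casp8*, from 19.7 and 14 CPM to 39.9 and 39.4 CPM (log2 fold change 1.24, standard error 0.16, adjusted p = 2.79e-04). *Tnfrsf1a*, a receptor for tumour necrosis factor, had 8.47 and 6.89 CPM in controls and 14.7 and 14.3 CPM in *Cnot3*-cKO cells (log2 fold change 0.92, adjusted p = 0.00471). *Birc6*, a giant inhibitor of apoptosis, fell from 969 and 784 CPM to 642 and 647 CPM (log2 fold change -0.44, adjusted p = 0.00569). *Fadd*, the adaptor between death receptors and caspase-8, was picked for its role after its value was seen, and had a log2 fold change of -0.33 (adjusted p = 0.301).

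The BCL2 family had 15 members in the list, of which *Bok* was higher, *Bcl2l1* was lower and 13 did not pass the test. Over all tested genes, 6.21% were higher and 4.7% were lower. Among the effectors, *Bok* (chr1:93685660-93695764) had 7.92 and 10.3 CPM in controls and 17.7 and 18 CPM in *Cnot3*-cKO cells, a 1.95-fold rise (log2 fold change 0.96, standard error 0.18, adjusted p = 0.00301), and passed without any 1 library. *Bax* had 35.8 and 43.7 CPM in controls and 36.7 and 33.0 CPM in *Cnot3*-cKO cells, so that the groups overlapped (log2 fold change -0.19, 95% interval -0.48 to 0.10, adjusted p = 0.363). Of its exon bases, 12.2% are shared with *Gm45808* on the same strand. *Bak1* was scarce, with 1.46 and 0.594 CPM against 2.12 and 1.85 CPM (log2 fold change 0.95, standard error 0.47, adjusted p = 0.183). Leaving out control replicate 1 gave 1.73 and leaving out control replicate 2 gave 0.43, and 25.5% of its exon bases overlap *Ggnbp1* on the opposite strand. Per kb of exon, *Bax* was the leading effector in every library, and *Bok* moved from 4.96 to 9.68 CPM per kb.

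On the pro-survival side, *Bcl2l1* (chr2:152780668-152831728), which encodes BCL-XL, had 60.3 and 52.2 CPM in controls and 40.3 and 37.1 CPM in *Cnot3*-cKO cells, a level of 0.688 relative to controls (log2 fold change -0.54, standard error 0.12, adjusted p = 0.00650). Besides the scalings named above, the call was lost without control replicate 1 (-0.44, adjusted p = 0.0116), without *Cnot3*-cKO replicate 1 (-0.61, adjusted p = 0.0104) and without *Cnot3*-cKO replicate 2 (-0.48, adjusted p = 0.0494). Counts per gene cannot separate its long, protective form from its short, death-promoting form. *Bcl2* had 2.91 and 2.28 CPM in controls and 4.72 and 5.34 CPM in *Cnot3*-cKO cells, which were higher in both libraries but did not pass (log2 fold change 0.96, standard error 0.27, adjusted p = 0.0248). *Bcl2l2*, which encodes BCL-W and is required for spermatogenesis, had a log2 fold change of 0.36 (adjusted p = 0.0857), and 13.3% of its exon bases are shared with *Gm20521*. *Mcl1*, a short-lived pro-survival protein, had 131 and 141 CPM against 149 and 159 CPM (log2 fold change 0.18, 95% interval -0.01 to 0.37, adjusted p = 0.179).

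*Mcl1* was the most abundant pro-survival transcript per kb of exon, at 39.7 CPM per kb in controls and 45.0 in *Cnot3*-cKO cells. *Bcl2l1* followed at 12.3 and 8.44 CPM per kb, then *Bcl2l2* at 5.58 and 7.15, and *Bcl2* was last at 0.283 and 0.549. Per kb, *Mcl1* exceeded *Bcl2l1* by ratios of 2.91 and 3.61 in controls and by 4.95 and 5.74 in *Cnot3*-cKO cells. The summed level of the 4 pro-survival genes was 57.8 and 57.9 CPM per kb in controls, against 60.2 and 62.0 in *Cnot3*-cKO cells. They made up 42.6% and 39.4% of the BCL2 family sum in controls, against 43.0% and 43.9% after *Cnot3* deletion.

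**Figure D5:**
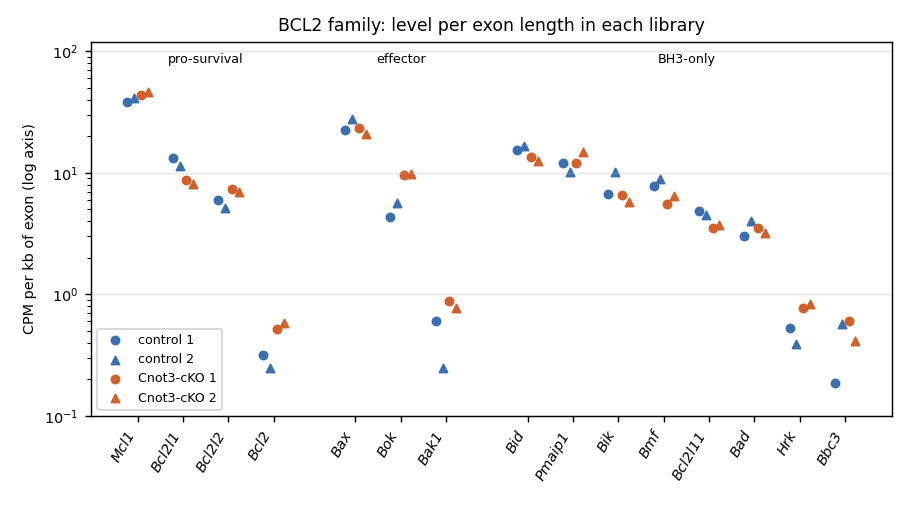
Level per kb of exon (CPM per kb, log axis) of the 15 BCL2 family genes in each library, grouped as pro-survival, effector and BH3-only and ordered by their control mean. Mcl1 and Bax lead their groups in all 4 libraries. Blue and orange points do not overlap for 11 of the 15 genes, against 59.1% of all tested genes. Of these 11, Bok and Bcl2l1 passed the test.

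None of the 8 BH3-only genes passed the edgeR test at an adjusted p under 0.01. At an unadjusted p under 0.05 there were 4 of them, namely *Bmf*, *Bcl2l11*, *Hrk* and *Bid*, and DESeq2 called *Bmf* alone. The share of all tested genes under that unadjusted limit was not counted, so the 4 have no background to be set against. *Bbc3* and *Pmaip1*, which encode PUMA and NOXA and are the BH3-only targets most tied to p53, did not pass the test. *Bbc3* had 16 and 51 reads in controls against 29 and 25 after *Cnot3* deletion, or 0.397 and 1.21 against 1.28 and 0.873 CPM (log2 fold change 0.41, 95% interval -0.87 to 1.68). *Pmaip1* had 33.0 and 27.7 CPM in controls and 33.0 and 40.5 CPM in *Cnot3*-cKO cells (log2 fold change 0.28, 95% interval -0.03 to 0.59, adjusted p = 0.206). *Bmf*, released from the cytoskeleton under stress, had 40.6 and 46.9 CPM against 29.0 and 33.7 CPM (log2 fold change -0.48, adjusted p = 0.0208). *Bcl2l11*, which encodes BIM, had 38.7 and 36.3 CPM against 28.2 and 30.2 CPM (log2 fold change -0.36, adjusted p = 0.0558). *Bid*, cleaved by caspase-8 to link the receptor and mitochondrial pathways, had a log2 fold change of -0.31 (adjusted p = 0.0677), and 17.7% of its exon bases overlap *Bcl2l13* on the opposite strand.

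*Hrk* differed in sign from *Bmf*, *Bcl2l11* and *Bid*, with 3 and 2.21 CPM in controls and 4.37 and 4.75 CPM in *Cnot3*-cKO cells (log2 fold change 0.81, standard error 0.28, adjusted p = 0.0598). *Bik* varied mainly between the controls, at 10.7 and 16.1 CPM, against 10.4 and 9.22 CPM in *Cnot3*-cKO cells (adjusted p = 0.173). *Bad* overlapped between the groups, with a log2 fold change of -0.07 (adjusted p = 0.873), and 20.5% of its exon bases overlap *Gpr137* on the opposite strand. Summed over the 8 genes, BH3-only transcripts stood at 50.5 and 55.3 CPM per kb in controls, against 46.0 and 47.7 in *Cnot3*-cKO cells.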

How the data were processed

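ID4-EGFP+ cells were sorted from postnatal day 8 testes, and stranded total RNA libraries were made. The authors filtered reads on quality, used STAR for alignment to mm10 and featureCounts on a GENCODE annotation, and the deposited values are raw counts per gene without normalization. Options for strand and for reads matching several genes are not given in the sources used here.

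Counts were analysed with edgeR 4.0.16 in R 4.3.3, with TMM scaling, filterByExpr, and the quasi-likelihood test of *Cnot3*-cKO against control without covariates, adjusted by Benjamini-Hochberg over 23952 tested genes. Genes were called at an adjusted p under 0.01, and counted also with the fold change above 2 that the study added to this limit. The study used DESeq2, of which version 1.42.0 was run as an alternative. Exon lengths came from GENCODE M21 on GRCm38, with the exons of all transcripts of a gene merged. Of 54920 listed symbols 53032 have a name there, including all 39 genes. A count of 3 was taken as the floor, and 0 of the 39 genes were at or under it in any library. Intervals are 95% intervals from the fitted model.

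Every gene of the list was described. Values per library were given for genes past an adjusted p of 0.01, for those with an absolute log2 fold change of at least 0.5 and for 8 fixed genes, and from each wider list the 3 with the smallest p were named where p was under 0.01, and those past an adjusted p of 0.01 and a fold of 2. Alternatives covered scaling, low count filters, dispersion, a replicate block, each library left out and thinning. The genes and all lists were chosen with earlier results of these data known. The fit was tested on simulated data. Figures were drawn with matplotlib 3.10.9.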

Additional observations from a re-analysis of the deposited data

How the results depend on the processing

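The calls of *Ccng1*, *Plk2*, *Eda2r*, *Bok* and *Casp8* were kept in all 14 alternatives to the edgeR fit. Of 539 log2 fold changes recomputed over the 39 genes, 500 kept their direction and their side of the threshold, 14 lost the call, 11 gained it and 14 turned in sign. The 2 lower genes became 0 with library size only, 0 with pan-germ cell scaling and 0 with upper quartile scaling, and the 4 genes higher by more than 2-fold became 7 with pan-germ cell scaling. That scaling moved the median log2 fold change of all tested genes from 0.01 to 0.11 and gave 1651 higher and 427 lower genes in all, against 1488 and 1125. With library size only there were 1728 and 779. With each library left out in turn, the number of lower genes ran from 0 to 4, and the median of the 39 genes from -0.10 to 0.16. The sign turned only for genes that did not pass the test. With pan-germ cell scaling, *Bad* was at 0.048, *Mdm2* at 0.029 and *Phlda3* at 0.057, with library size only *Phlda3* was at 0.0019, and without a count filter *Tnfrsf10b* was at -0.013. With a library left out, log2 fold changes ran from -0.26 to 0.033 for *Apaf1*, -0.26 to 0.16 for *Bad*, -0.18 to 1.42 for *Bbc3*, -0.032 to 0.18 for *Casp6*, -1.71 to 0.42 for *Fas*, -0.38 to 0.32 for *Phlda3* and -0.10 to 0.12 for *Tnfrsf10b*. The cause was not tested. *Sesn2* was called with pan-germ cell scaling, library size only, a mean count of at least 50 and without control replicate 2, and *Casp9* and *Mdm4* without control replicate 2. *Bmf* was called by DESeq2, without a count filter and without control replicate 1. A fit with the replicate block called 11 of the 39 genes, 8 higher and 3 lower, adding *Sesn2* and *Bmf*. In the labels, same-numbered libraries share only a number. The correlation of their deviations was 0.0829 over 15391 genes. With 2 libraries per group this cannot exclude a shared litter or sort. A mean count of at least 50 left 34 of the 39 genes to test. Depth limits the genes with few reads, *Fas*, *Trp73*, *Bbc3*, *Trp63* and *Bak1*.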

Other observations

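Of 18 mitotic genes, 7 were higher in *Cnot3*-cKO cells by edgeR at an adjusted p under 0.01, against 6.21% of all tested genes. None was lower by that test, against 4.7% of all tested genes, and the median log2 fold change was 0.31. At an unadjusted p under 0.05 none was lower either, a limit at which all tested genes were not counted. *Cdc20*, the activator of the anaphase-promoting complex, had 131 and 143 CPM in controls and 251 and 226 CPM in *Cnot3*-cKO cells (log2 fold change 0.80, standard error 0.09, edgeR adjusted p = 9.07e-05). *Ccnb1*, which encodes cyclin B1, had 192 and 212 CPM against 302 and 294 CPM (0.56, adjusted p = 6.89e-04), and *Ccnb2* had 60.5 and 69.9 CPM against 103 and 97.2 CPM (0.62, adjusted p = 0.00129). *Kif11*, *Incenp*, *Ccna2* and *Top2a* completed the 7, with log2 fold changes from 0.34 to 0.46. *Mki67* and *Cdk1*, picked after their values were seen, had log2 fold changes of 0.04 and 0.03.

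Among 15 genes that act upstream of p53 or in DNA damage signalling, 0 were higher and 2 were lower, beside 6.21% and 4.7% of all tested genes. Their median log2 fold change was -0.15. By edgeR at an unadjusted p under 0.05, 1 was higher and 6 were lower, a limit at which all tested genes were not counted. The higher one was *Chek1*, a checkpoint kinase gene, with 97.5 and 115 CPM in controls and 124 and 135 CPM in *Cnot3*-cKO cells (adjusted p = 0.0666). *Crebbp*, which encodes a coactivator of p53, had 469 and 381 CPM in controls and 302 and 280 CPM in *Cnot3*-cKO cells (log2 fold change -0.55, adjusted p = 0.00227). *Prkdc*, the catalytic subunit of DNA-PK, had 540 and 479 CPM against 388 and 403 CPM (-0.37, adjusted p = 0.00807). *Chek2*, which encodes another checkpoint kinase, had 51.7 and 56.5 CPM against 42.9 and 39.7 CPM (-0.39, adjusted p = 0.0272). The remaining 3 were *Mdc1* (-0.36), *Cdkn2a* (-0.54) and *Trp53bp1* (-0.18), named with *Chek1* after their values were seen.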
